A study of Homo sapiens with 10 samples.

Results

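The genes described here encode the matrix metalloproteinases (MMPs), the ADAMTS proteases and the tissue inhibitors of metalloproteinases (TIMPs). They were chosen by symbol alone from the deposited table of 25370 genes, which gave 47 genes: 24 MMP, 19 ADAMTS and 4 TIMP genes. Their RNA was measured in PEO1, an established line of high-grade serous ovarian carcinoma that is deficient in BRCA2, and in 4 clones of it, ABTr1, ABTr2, ABTr3 and ABTr4, selected for resistance to veliparib, an inhibitor of PARP. The clones had spent 6 months in 40 µM veliparib without a break and were taken off the drug 4 to 5 days before RNA was collected. The labels give the genotype as WT for parental PEO1 and as Veliparib resistant for the clones, and name no drug for parental cells, so long exposure to veliparib and resistance to it cannot be told apart. All 5 groups share 1 cell line and 1 growth medium with serum and insulin, and no stromal cells were cultured with them. Each group had 2 libraries, numbered replicate 1 and replicate 2, with total counts of 20640602 to 55488566 reads, and the 4 comparisons with parental cells share the same 2 parental libraries. Nothing in the labels says whether the libraries of a group came from separate cultures, so a p-value here covers library-to-library spread only, which may be technical.

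MMPs are zinc proteases that are made as inactive precursors, are switched on when a propeptide is cut away, and together cleave nearly every protein of the extracellular matrix. ADAMTS proteases are secreted relatives that cut proteoglycans, trim procollagens or process other matrix proteins, and TIMPs bind the active site of these enzymes and block it. In ovarian carcinoma MMPs are known for their part in the detachment of cells and the invasion of the peritoneal lining, and much of the MMP RNA of a tumour can come from its stroma.

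Of the 47 genes, 35 had enough reads to be tested. MMP2, MMP1, MMP16, ADAMTS5, ADAMTS18, ADAMTS2, ADAMTS7 and ADAMTS12 were higher in the mean of the 4 clones than in parental cells, and MMP24 was lower. These were 9 genes called at an adjusted p under 0.05 by edgeR's quasi-likelihood test, against 16% called among all 16490 tested genes, with 8 higher (7.17% of all tested genes were higher) and 1 lower (8.79% were lower). Same-numbered libraries of different groups deviated in the same direction, so a fit with that number as a block was also made. In it 16 of the 35 were called, 13 higher and 3 lower, against 34.6% of all tested genes (16.3% higher and 18.2% lower). The median log2 fold change (log2FC, from the edgeR fit) was 0.59 over the 35 genes and 0.02 over all tested genes. Setting ADAMTS5 and MMP19, which had no parental read, to the lowest fold their counts allow does not move that median. All 8 clone libraries lay above both parental libraries for 12 of the 35 genes (14.5% of all tested genes) and below both for 1 (12.5%). The 12 were the 8 genes named above with MMP3, MMP19, MMP11 and TIMP4, and the 1 was MMP24. The read filter ran over all 5 groups, for these genes as for all others. MMP1, MMP2, MMP3, MMP10, MMP19, ADAMTS5 and ADAMTS18, almost unread in parental cells, were therefore tested through their clone reads. They could hardly be found lower, so their rise adds no separate support to these counts or to the median. In bulk RNA, fewer cells that express a gene and less RNA per cell cannot be told apart.

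**Figure D1:**
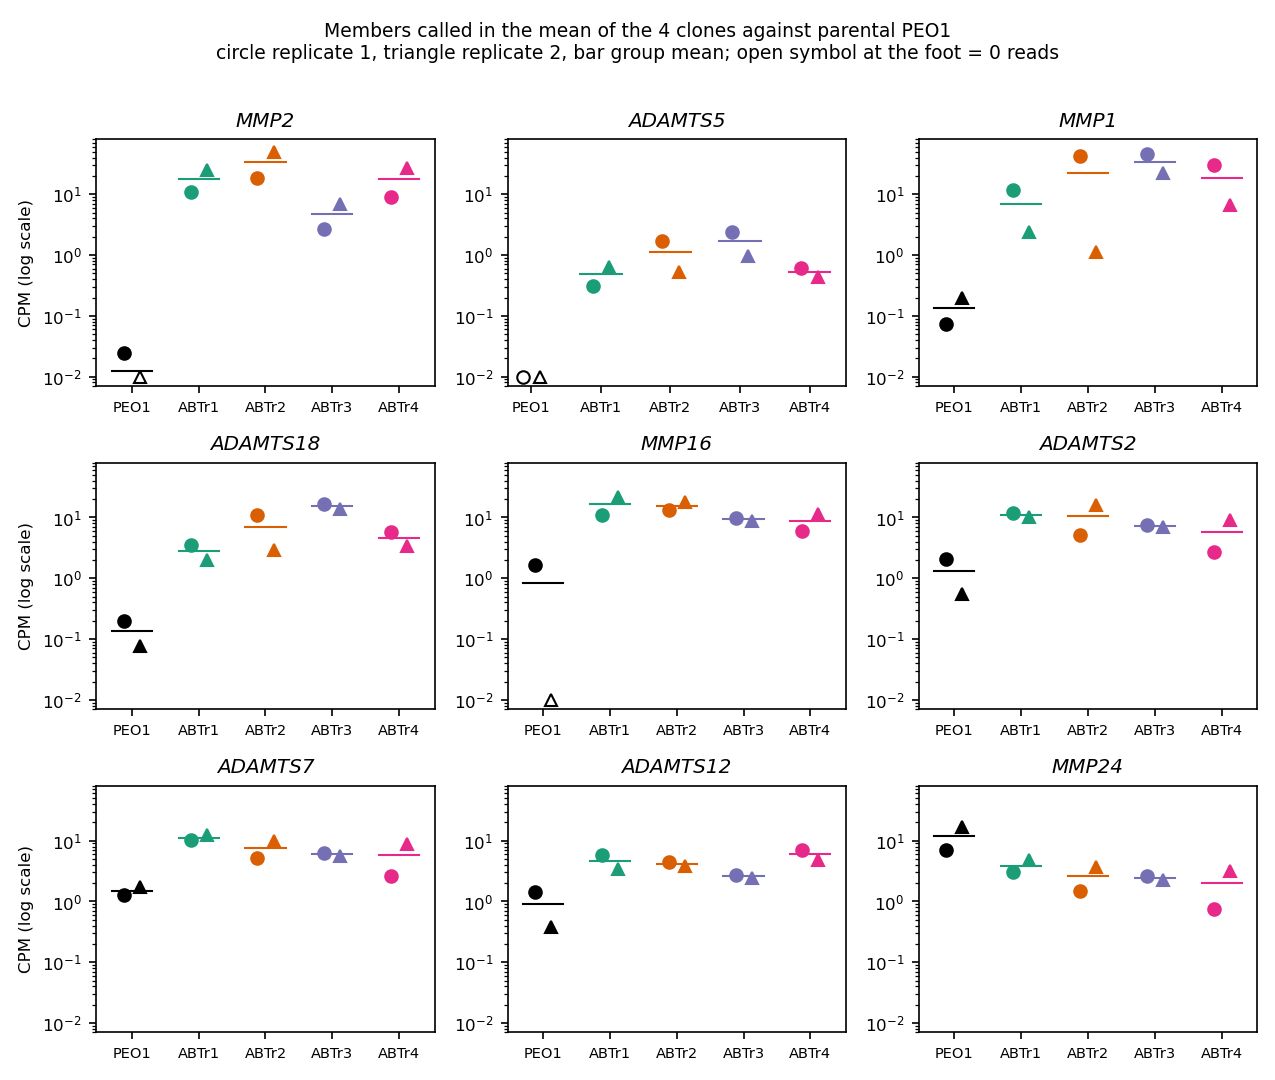
CPM (log axis; reads scaled to a common library size) of the 9 genes called in the mean of the 4 clones, for each of the 10 libraries; circles are replicate 1, triangles replicate 2, bars group means (not drawn for a mean of 0), and open symbols at the foot mark 0 reads. In the 8 panels from MMP2 to ADAMTS12 every clone library lies above both parental libraries, and in the MMP24 panel every clone library lies below them.

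Promoter sequences were compared because neighbouring MMP genes of 1 cluster differed in the sign of their fitted change. RefSeq promoter windows of GRCh38.p14, 250 bases before to 50 bases after each start, were found for 27 of the 47 genes. The AP-1-like motif TGANTCA, with N any base, was searched on both strands. It was present in 4 of them (MMP7, MMP10, MMP20 and ADAMTS12) and in 7.71% of all 35116 promoters in the table. The match read TGAGTCA in MMP7 and TGAATCA in MMP10, MMP20 and ADAMTS12. The TATA motif TATAAA, searched on both strands, was present in 7 of the 27 (MMP7, MMP10, MMP20, MMP8, MMP21, MMP26 and ADAMTS10) and in 11.5% of all promoters. Both motifs stood in the windows of MMP7, MMP10 and MMP20, 3 genes of the same cluster, and in 1.31% of all promoters. No 2 matches overlapped. Fewer than 10 CpG dinucleotides in the 250 bases before the start were found in 10 of the 27 genes and in 47.8% of all promoters.

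Shown first are the 150 bases before the start of MMP7 and MMP10, both on the minus strand of chromosome 11 in GRCh38.p14 (chr11:102530748-102530897 and chr11:102780629-102780778). The 2 windows hold a TGANTCA match at the same place, -67, with a different middle base, while the fitted changes of their RNAs differ in sign. The main edgeR fit, without the block, called neither change. MMP10, with 2 parental reads, was called in neither fit, so opposite changes were not shown for this pair. ADAMTS12 (chr5:33891991-33892140, minus strand) is shown as the called gene whose window has a TGANTCA match, at -84. ADAMTS18 (chr16:77435035-77435184, minus strand) and MMP24 (chr20:35226540-35226689, plus strand) are shown as a called rise and the called fall with neither motif. Sequences run 5′ to 3′, and capitals mark TGANTCA and TATAAA matches.
MMP7: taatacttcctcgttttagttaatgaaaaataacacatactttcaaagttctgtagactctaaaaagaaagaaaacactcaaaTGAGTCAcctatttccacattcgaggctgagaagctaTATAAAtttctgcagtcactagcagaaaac
MMP10: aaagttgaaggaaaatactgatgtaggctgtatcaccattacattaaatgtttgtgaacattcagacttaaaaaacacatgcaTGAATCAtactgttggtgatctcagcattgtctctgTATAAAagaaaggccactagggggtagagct
ADAMTS12: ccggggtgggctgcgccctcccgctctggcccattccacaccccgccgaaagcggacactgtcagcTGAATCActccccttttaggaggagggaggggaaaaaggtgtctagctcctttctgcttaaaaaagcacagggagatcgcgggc
ADAMTS18: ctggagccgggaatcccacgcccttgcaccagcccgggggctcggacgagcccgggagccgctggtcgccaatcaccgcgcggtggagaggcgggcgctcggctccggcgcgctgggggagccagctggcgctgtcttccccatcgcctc
MMP24: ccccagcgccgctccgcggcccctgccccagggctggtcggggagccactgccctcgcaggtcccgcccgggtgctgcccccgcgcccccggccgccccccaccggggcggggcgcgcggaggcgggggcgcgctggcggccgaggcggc

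The MMP7 and MMP10 stretches hold 2 and 0 CpG dinucleotides, that of ADAMTS12 holds 8, and those of ADAMTS18 and MMP24 hold 19 and 23. The TATAAA match lies at -30 in MMP7 and at -31 in MMP10. A match describes letters in a window and is not a measured binding site. Entries were not found for ADAMTS1, ADAMTS4, ADAMTS5, ADAMTS8, ADAMTS9, ADAMTS15, ADAMTS16, MMP1, MMP2, MMP3, MMP9, MMP12, MMP13, MMP16, MMP17, MMP19, MMP23A, MMP25, MMP28 and TIMP2.

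Among the gelatinases, MMP2 went from almost no reads to a clear signal in all 4 clones, and MMP9 was not called. MMP2 (hg19 chr16:55513081-55540586, plus strand) encodes gelatinase A, which degrades type IV collagen of basement membranes. Its level was 0.0248 and 0 CPM in PEO1, 10.7 and 24.8 CPM in ABTr1, 18.3 and 48.9 CPM in ABTr2, 2.68 and 6.82 CPM in ABTr3, and 8.97 and 27.0 CPM in ABTr4. Every clone library was above the parental ones, and ABTr3 was the lowest clone. Over the groups this was 1 read in PEO1 and 4866 in the clones, which after scaling is 1040 times as much (95% counting interval 187 to 41200). The fitted log2FC of MMP2 was 9.68 (SE 1.23, edgeR adjusted p = 0.0017), and it stayed called in each of the alternative settings tried, at 9.06 without PEO1 replicate 2 and at a fitted 12.11 without PEO1 replicate 1, which held the 1 read and leaves no parental read to set a size against. MMP9, gelatinase B, was at 0.917 and 0.813 CPM in PEO1 and at 0.574 to 2.56 CPM in clone libraries, with a log2FC of 0.67 (SE 0.41, edgeR adjusted p = 0.31). Its parental and clone libraries overlapped.

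Of the collagenases, which cut fibrillar collagen, only MMP1 had enough reads to be tested, and it was higher in the clones. MMP1 (hg19 chr11:102660641-102668966, minus strand) encodes interstitial collagenase. It was at 0.0744 and 0.193 CPM in PEO1, 11.7 and 2.37 CPM in ABTr1, 43.0 and 1.11 CPM in ABTr2, 45.9 and 22.3 CPM in ABTr3, and 30.3 and 6.65 CPM in ABTr4. All clone libraries exceeded the parental ones, and replicate 1 was above replicate 2 in each clone. The log2FC of MMP1 was 7.11 (SE 1.81, edgeR adjusted p = 0.031) and 7.13 (SE 1.15, edgeR adjusted p = 0.0012) in the fit with the replicate block. The call was lost without PEO1 replicate 1 (adjusted p = 0.16), PEO1 replicate 2 (0.15), ABTr3 replicate 1 (0.057) or ABTr3 replicate 2 (0.054), with log2FC values of 6.46, 7.83, 6.95 and 7.21. MMP8 and MMP13, the other collagenases, had 2 reads and 1 read over all 10 libraries.

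MMP1 lies in a cluster of 9 MMP genes on chromosome 11 (hg19 chr11:102391239-102826463), and the fitted changes of its members differed in sign. The cluster holds MMP7, MMP20, MMP27, MMP8, MMP10, MMP1, MMP3, MMP12 and MMP13 in this order of coordinates. MMP7, matrilysin, which lacks the hemopexin domain of most MMPs and is typically made by epithelial cells, was at 5.41 and 20 CPM in PEO1, 0.877 and 3.08 CPM in ABTr1, 0.400 and 7.73 CPM in ABTr2, 0.0957 and 0.916 CPM in ABTr3, and 0.215 and 3.63 CPM in ABTr4. Replicate 2 was the higher library in each group, and 1 clone library, ABTr2 replicate 2, lay above the lower parental library. MMP7 had a log2FC of -2.94 (SE 1.05, edgeR adjusted p = 0.094), and with the replicate block a log2FC of -3.43 (SE 0.41, edgeR adjusted p = 1.8e-04). The unblocked value of MMP7 was -1.72 (edgeR adjusted p = 0.52) without PEO1 replicate 2, and MMP7 was called with no filter on low counts (0.041) and without ABTr2 replicate 2 (-3.79, 0.031).

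MMP3, stromelysin-1, which cleaves proteoglycans and activates other pro-MMPs, had 1 read in PEO1 and 194 in the clones, 41.6 times as much after scaling (95% counting interval 7.38 to 1650). Every clone library had at least 0.0591 CPM, against 0 and 0.0387 CPM in PEO1, so the groups did not overlap, by a narrow margin. The edgeR adjusted p of MMP3 was 0.0504 at a log2FC of 4.71 (SE 1.38), and 0.016 with the replicate block at 4.75 (SE 1.26). MMP3 was also called by DESeq2 (DESeq2 adjusted p = 0.012), with library totals (edgeR adjusted p = 0.043) and with no filter on low counts (0.032). Its log2FC was 3.54 without PEO1 replicate 1. Without PEO1 replicate 2, which held the 1 read, it was a fitted 7.28, no measure of size. MMP10, stromelysin-2, had 2 reads in PEO1 and 75 in the clones, 8.04 times as much after scaling (95% counting interval 2.15 to 67.6). It had no read in 3 of the 8 clone libraries, and its log2FC of 2.42 (SE 1.97) was not called (edgeR adjusted p = 0.45). MMP11, stromelysin-3, lies outside the cluster on chromosome 22 and is activated inside the cell by furin. MMP11 was at 1.44 and 1.90 CPM in PEO1, 8.60 and 18.2 CPM in ABTr1, 2.62 and 17.0 CPM in ABTr2, 2.74 and 5.67 CPM in ABTr3, and 2.11 and 8.62 CPM in ABTr4. All clone libraries were above the parental ones and replicate 2 was above replicate 1 in each group. MMP11 had a log2FC of 2.14 (SE 0.84, edgeR adjusted p = 0.12) and with the replicate block 1.87 (SE 0.44, edgeR adjusted p = 0.0086).

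**Figure D2:**
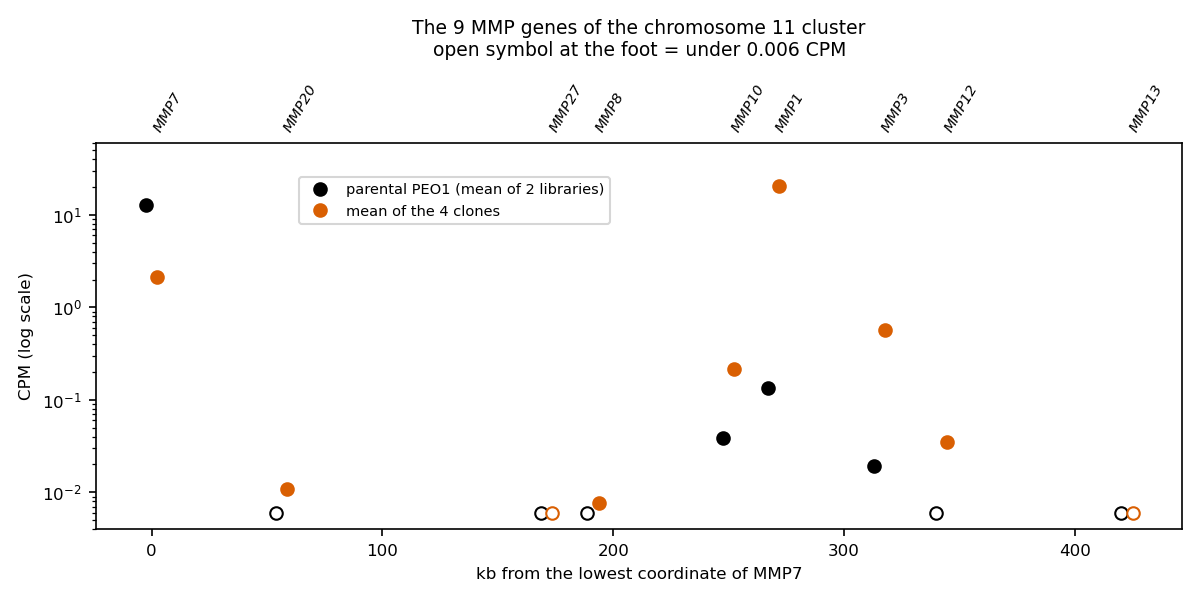
Mean CPM (log axis) of the 9 MMP genes of the chromosome 11 cluster in parental PEO1 (black) and over the 4 clones (orange), placed by distance in kb from the lowest coordinate of MMP7; open symbols at the foot are under 0.006 CPM. MMP7 at one end is lower in the clones (12.7 against 2.12 CPM), MMP1 is higher (0.134 against 20.4 CPM), and MMP27 and MMP13 sit at the foot in both.

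The membrane-anchored MMPs moved in different directions. MMP16 (MT3-MMP), a membrane-type enzyme that can activate pro-MMP2, was at 1.66 and 0 CPM in PEO1, 10.9 and 21.8 CPM in ABTr1, 13.2 and 17.7 CPM in ABTr2, 9.82 and 8.77 CPM in ABTr3, and 5.89 and 11.5 CPM in ABTr4. The groups did not overlap, and 1 parental library held all the parental reads. MMP16 had a log2FC of 3.78 (SE 1.04, edgeR adjusted p = 0.041). Leaving out any 1 library of ABTr1, ABTr3 or ABTr4 ended that call (ABTr1 replicate 1 0.064 and replicate 2 0.076, ABTr3 replicate 1 and replicate 2 both 0.076, ABTr4 replicate 1 0.051 and replicate 2 0.062, all edgeR adjusted p), with log2FC values of 3.63 to 3.88. Without PEO1 replicate 1, which held those reads, the fitted value was 11.79, set against 0 parental reads and therefore no measure of size. In the fit with the block MMP16 stood at 3.69 (SE 0.84, edgeR adjusted p = 0.0076).

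MMP24 (MT5-MMP; hg19 chr20:33814539-33864804, plus strand), a membrane-type enzyme studied mostly in the nervous system, was at 7.04 and 17.1 CPM in PEO1. It was at 3.03 and 4.77 CPM in ABTr1, 1.51 and 3.67 CPM in ABTr2, 2.58 and 2.27 CPM in ABTr3, and 0.753 and 3.20 CPM in ABTr4, so that all clone libraries lay below both parental ones. MMP24 fell by 2.20 on the log2 scale (SE 0.51, edgeR adjusted p = 0.021), which is 4.58-fold lower. The call was lost without PEO1 replicate 2 (log2FC -1.43, adjusted p = 0.25), ABTr1 replicate 1 (-2.12, 0.051) or ABTr3 replicate 2 (-2.17, 0.0517). The libraries were made without strand information, and MMP24 shares 669 exonic bases with its antisense gene MMP24-AS1, so reads of the 2 genes cannot be told apart there. MMP24-AS1 was at 10.5 and 17 CPM in PEO1 and at 16.7 to 55 CPM in the clone libraries (log2FC 1.36, SE 0.44, edgeR adjusted p = 0.069).

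MMP15 (MT2-MMP) was at 7.17 and 14.7 CPM in PEO1 and at 2.60 to 8.77 CPM in the clones, with overlap. Its log2FC was -0.88 (SE 0.38, edgeR adjusted p = 0.16), and -0.83 (SE 0.25, edgeR adjusted p = 0.028) in the fit with the replicate block. Without PEO1 replicate 2 the MMP15 value was -0.28 (edgeR adjusted p = 0.77). MMP14 (MT1-MMP), the membrane enzyme best known for activating pro-MMP2, was almost unread in all libraries, at 0.248 and 0.0774 CPM in parental cells and 0.113 to 0.523 CPM in clones. For MMP14 the log2FC of 0.38 (SE 0.61, edgeR adjusted p = 0.72) had a 95% interval of -1.01 to 1.77 and turned to -0.16 without PEO1 replicate 2. MMP25 was at 1.39 and 1.20 CPM in parental cells and 1.03 to 3.85 CPM in clones (log2FC 0.40, SE 0.45, edgeR adjusted p = 0.60). MMP19, a secreted MMP outside these classes, had 0 parental reads and 95 clone reads, which is at least 6.79-fold higher with a floor of 3 counts over the parental group. MMP19 had reads in all 8 clone libraries, at 0.0430 to 0.800 CPM, and its edgeR adjusted p was 0.057 without the replicate block and 0.0073 with it. MMP19 was also called by DESeq2 (adjusted p = 0.0067), with library totals (0.0497) and with no filter on low counts (0.038).

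Of the ADAMTS genes, 18 of 19 were tested, and 5 were called, all higher in the clones, where 16% of all tested genes were called and 7.17% were higher. ADAMTS5 is the member of the proteoglycanase group best known for cutting aggrecan. ADAMTS5 (hg19 chr21:28290231-28339439, minus strand) had 0 reads in both parental libraries. Its clone levels were 0.311 and 0.646 CPM in ABTr1, 1.73 and 0.531 CPM in ABTr2, 2.41 and 0.975 CPM in ABTr3, and 0.624 and 0.431 CPM in ABTr4. All clone libraries had reads, 340 in total, which makes ADAMTS5 at least 24.3-fold higher with a floor of 3 counts over the parental group. By clone the lower limits were 10.4-fold in ABTr1, 30.9-fold in ABTr2, 40.7-fold in ABTr3 and 12-fold in ABTr4. The edgeR adjusted p of ADAMTS5 was 0.0095, and it was 0.0528 without PEO1 replicate 2. ADAMTS1 and ADAMTS5 are neighbours on chromosome 21, with 72503 bases between the end of ADAMTS1 and the start of ADAMTS5.

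ADAMTS18 (hg19 chr16:77316025-77469011, minus strand), a secreted protease linked to eye development, was at 0.198 and 0.0774 CPM in PEO1, 3.59 and 1.97 CPM in ABTr1, 10.8 and 2.95 CPM in ABTr2, 16.7 and 13.8 CPM in ABTr3, and 5.77 and 3.42 CPM in ABTr4. No clone library overlapped the parental ones, and ABTr3 was the highest clone. ADAMTS18 had a log2FC of 5.35 (SE 0.76, edgeR adjusted p = 0.0027), and it was called in every alternative setting tried, at 4.91 to 6.20.

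ADAMTS7 (hg19 chr15:79051545-79103773, minus strand) and ADAMTS12 (hg19 chr5:33527287-33892124, minus strand) are a closely related pair that both cut cartilage oligomeric matrix protein. ADAMTS7 was at 1.26 and 1.70 CPM in PEO1, 10.2 and 12.2 CPM in ABTr1, 5.22 and 9.90 CPM in ABTr2, 6.30 and 5.64 CPM in ABTr3, and 2.67 and 8.93 CPM in ABTr4. ADAMTS12 was at 1.44 and 0.387 CPM in PEO1, 5.71 and 3.38 CPM in ABTr1, 4.45 and 3.82 CPM in ABTr2, 2.74 and 2.45 CPM in ABTr3, and 7.12 and 4.77 CPM in ABTr4. For both genes the groups did not overlap, and the order of the clones differed, with ABTr1 highest for ADAMTS7 and ABTr4 highest for ADAMTS12. Their log2FC values were 2.31 (SE 0.53, edgeR adjusted p = 0.020) for ADAMTS7 and 2.15 (SE 0.53, edgeR adjusted p = 0.028) for ADAMTS12. The ADAMTS7 call was lost without PEO1 replicate 1 (adjusted p = 0.11) or PEO1 replicate 2 (0.10). Without PEO1 replicate 1 the value of ADAMTS12 was 3.37 (edgeR adjusted p = 0.012). The ADAMTS12 call was lost without PEO1 replicate 2 (log2FC 1.52, adjusted p = 0.12), ABTr1 replicate 1 (0.0552), ABTr3 replicate 1 (0.0533) or ABTr3 replicate 2 (0.0523).

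ADAMTS2 (hg19 chr5:178537852-178772431, minus strand) removes the amino-terminal propeptide of fibrillar procollagens, as do ADAMTS3 and ADAMTS14. ADAMTS2 was at 2.08 and 0.542 CPM in PEO1, 11.9 and 10.2 CPM in ABTr1, 5.09 and 16.2 CPM in ABTr2, 7.51 and 6.94 CPM in ABTr3, and 2.69 and 9.05 CPM in ABTr4. The groups did not overlap, although ABTr4 replicate 1 came close to the higher parental library. Its log2FC was 2.65 (SE 0.73, edgeR adjusted p = 0.041), and the adjusted p was 0.21 (log2FC 2.01) without PEO1 replicate 2, 0.075 and 0.070 without ABTr1 replicate 1 or replicate 2, and 0.074 without either library of ABTr3. ADAMTS3 (0.44, SE 0.45, edgeR adjusted p = 0.56) and ADAMTS14 (-0.12, SE 0.59, edgeR adjusted p = 0.92) were not called on the log2 scale. Without PEO1 replicate 1 ADAMTS2 stood at 3.90 (edgeR adjusted p = 0.043). Of the 3 procollagen propeptidases, 1 was therefore called.

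ADAMTS13, the protease that trims von Willebrand factor, was at 0.942 and 2.44 CPM in PEO1 and at 2.00 to 5.44 CPM in the clones, with overlap at ABTr2 replicate 1 and ABTr4 replicate 1. Its log2FC was 1.22 (SE 0.54, edgeR adjusted p = 0.16), and 1.30 (SE 0.37, edgeR adjusted p = 0.023) in the fit with the replicate block. Neither fit called 12 other ADAMTS genes: ADAMTS1, ADAMTS3, ADAMTS4, ADAMTS6, ADAMTS9, ADAMTS10, ADAMTS14, ADAMTS15, ADAMTS16, ADAMTS17, ADAMTS19 and ADAMTS20. Of these ADAMTS6 was called by DESeq2 (log2FC 2.82, adjusted p = 0.023). Over the 19 MMP, ADAMTS and TIMP genes that neither fit called, log2FC values ran from -0.87 to 2.86 and edgeR adjusted p from 0.15 to 0.98. ADAMTS15, a proteoglycanase with a readable level, was at 12.1 and 3.13 CPM in PEO1 and 2.57 to 15.5 CPM in clone libraries (log2FC -0.21, SE 0.53, edgeR adjusted p = 0.83).

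ADAMTS1, a proteoglycanase that also binds vascular endothelial growth factor, showed the widest gap between same-group libraries. It was at 4.93 and 11.3 CPM in PEO1, 20.4 and 3.35 CPM in ABTr1, 152 and 2.75 CPM in ABTr2, 177 and 19.4 CPM in ABTr3, and 30.4 and 4.77 CPM in ABTr4. All 4 clone libraries numbered 1 were above both parental libraries, and 3 of the 4 numbered 2 were below both. As replicate 1 minus replicate 2 on the log2 scale (0.5 CPM added) ADAMTS1 differed by -1.12 in PEO1, 2.44 in ABTr1, 5.55 in ABTr2, 3.16 in ABTr3 and 2.55 in ABTr4. Its log2FC was 2.13 (SE 1.49, edgeR adjusted p = 0.37) and 0.56 (SE 0.94, edgeR adjusted p = 0.68) in the fit with the replicate block, so the size of the difference rests on which number is read. MMP1 had differences of the same sign as ADAMTS1 in all groups, at -0.27 in PEO1, 2.08 in ABTr1, 4.76 in ABTr2, 1.03 in ABTr3 and 2.11 in ABTr4. ADAMTS6 did as well, at -0.57 in PEO1, 0.24 in ABTr1, 3.51 in ABTr2, 1.28 in ABTr3 and 0.41 in ABTr4. MMP7 differed the other way, at -1.79, -1.38, -3.19, -1.25 and -2.53 in the same order of groups, and MMP2 did so in the clones, at -1.18, -1.40, -1.20 and -1.54 from ABTr1 to ABTr4. The labels do not say what the replicate number stands for, and the part of culture, day or extraction in these differences was not tested. Replicate 1 was also the deeper library in every group.

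**Figure D3:**
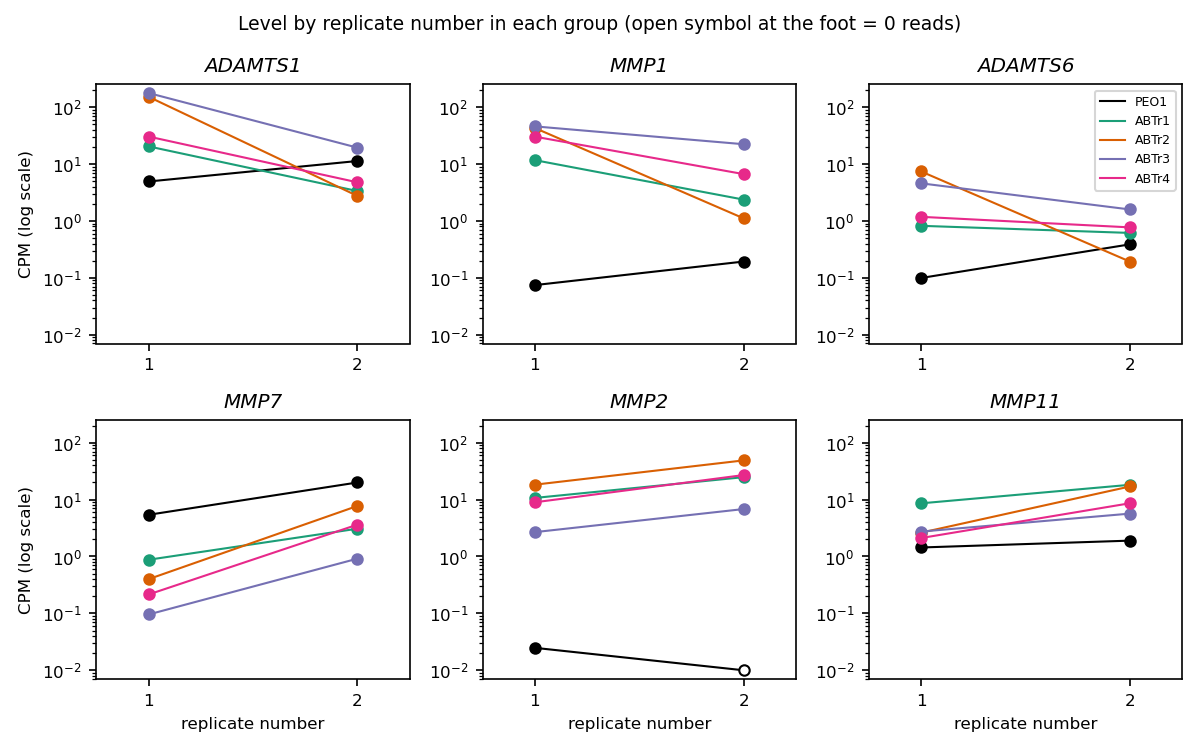
CPM (log axis) of ADAMTS1, MMP1, ADAMTS6, MMP7, MMP2 and MMP11 in the library numbered 1 and the library numbered 2 of each group, joined by a line per group; open symbols at the foot mark 0 reads. ADAMTS1, MMP1 and ADAMTS6 are higher in replicate 1 in all 4 clones and lower in replicate 1 in PEO1, while MMP7 and MMP11 are higher in replicate 2 in all 5 groups.

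Without the block, edgeR with TMM factors called none of the 4 inhibitors in the mean of the clones. TIMP2, which inhibits MMPs and also takes part in the activation of pro-MMP2 at the cell surface, was at 809 and 1920 CPM in PEO1, 1340 and 1720 CPM in ABTr1, 881 and 1700 CPM in ABTr2, 818 and 1260 CPM in ABTr3, and 746 and 1170 CPM in ABTr4. The groups overlapped throughout. TIMP2 had a log2FC of -0.21 (SE 0.39, edgeR adjusted p = 0.76) with a 95% interval of -1.09 to 0.67. Its sign was not stable, at 0.05 with library totals in place of TMM factors and 0.55 without PEO1 replicate 2. TIMP1 was at 89.8 and 97.5 CPM in PEO1 and at 119 ± 26.2 CPM (SD over the 4 clone means) in the clones (log2FC 0.32, SE 0.23, edgeR adjusted p = 0.37, 95% interval -0.19 to 0.84).

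TIMP3, the inhibitor that binds to matrix and also blocks ADAMTS proteases, was at 0.793 and 2.24 CPM in PEO1, 7.55 and 4.65 CPM in ABTr1, 2.29 and 2.66 CPM in ABTr2, 2.11 and 1.80 CPM in ABTr3, and 0.624 and 1.17 CPM in ABTr4. ABTr1 was above both parental libraries and ABTr4 overlapped them. TIMP3 had a log2FC in the mean of 0.59 (SE 0.47, edgeR adjusted p = 0.44) and -0.03 without PEO1 replicate 1. TIMP4 was at 1.22 and 1.35 CPM in PEO1, 5.85 and 2.86 CPM in ABTr1, 3.40 and 3.19 CPM in ABTr2, 2.45 and 3.10 CPM in ABTr3, and 1.48 and 1.63 CPM in ABTr4. Every clone library was above both parental ones, by little in ABTr4. For TIMP4 the log2FC was 1.13 (SE 0.38, edgeR adjusted p = 0.077), and 1.12 (SE 0.36, edgeR adjusted p = 0.034) in the fit with the replicate block. Without the block TIMP4 was called by DESeq2 (1.11, DESeq2 adjusted p = 0.015) and with library totals (1.36, edgeR adjusted p = 0.044).

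Levels were compared between genes as CPM per kilobase of exon. TIMP2 (374 in parental cells and 329 in the mean of the clones) and TIMP1 (102 and 130) stood far above every protease on this scale. In parental cells the next was MMP7, at 11.3 per kilobase, followed by MMP24 at 2.78 and MMP15 at 2.46. In the mean of the clones ADAMTS1 (11), MMP1 (9.93), MMP2 (4.82) and MMP11 (3.63) were the highest proteases, and MMP7 was at 1.89. By group mean ADAMTS1 was the highest protease in ABTr2 (16.7) and ABTr3 (21.2) only. Both means rest on replicate 1 (152 CPM against 2.75 CPM in replicate 2 of ABTr2, 177 CPM against 19.4 CPM in ABTr3). In replicate 2 a gene with a shorter exonic length was above ADAMTS1 in each, MMP2 in ABTr2 (48.9 CPM) and MMP1 in ABTr3 (22.3 CPM). In ABTr1 (2.55) and ABTr4 (3.78) the mean of ADAMTS1 was below those of MMP1 (3.41 and 8.98) and MMP2 (4.62 and 4.68). The 4 TIMPs made up 94.9% and 94.8% of the summed level per kilobase of all 47 genes in the 2 PEO1 libraries. In the clone libraries they made up 79.9% (ABTr3 replicate 1) to 94.4% (ABTr1 replicate 2), and the other low value was 83.3% in ABTr2 replicate 1. These 2 libraries are also the ones with the most ADAMTS1.

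**Figure D4:**
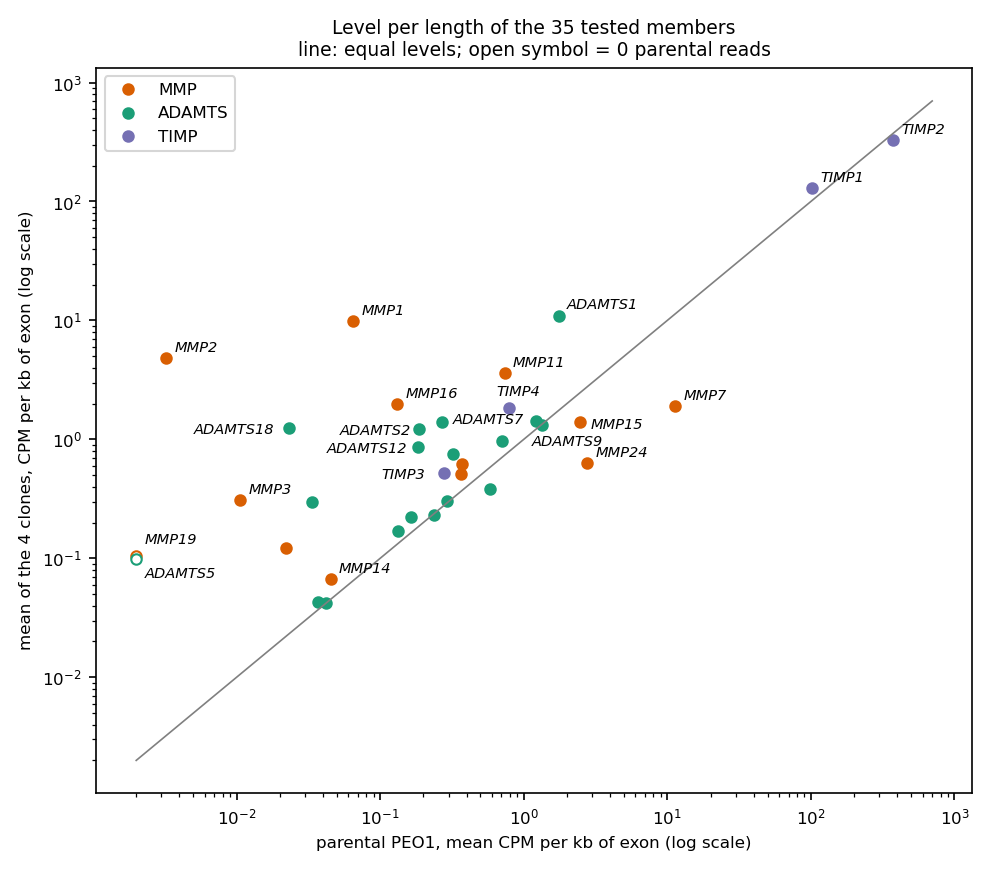
Mean level per length (CPM per kilobase of exon, both axes on a log scale) of the 35 tested genes in parental PEO1 and in the mean of the 4 clones; the line marks equal levels, and open symbols at the left edge had 0 parental reads. TIMP2 and TIMP1 sit near the line at the top right, MMP2 (0.00323 against 4.82) lies farthest above it among genes with parental reads, and MMP7, MMP15 and MMP24 lie below it.

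The 12 genes that were not tested had at most 12 reads in any library and at most 41 reads in all. MMP26 and MMP27 had no read in any of the 10 libraries. ADAMTS8 had reads in 9 libraries, MMP28 in 7 and MMP21 in 6, and MMP12, MMP17 and MMP23B in 3 each. MMP28, epilysin, had 0 parental reads and 25 clone reads, at least 1.79-fold higher with a floor of 3 counts over the parental group, and MMP12, macrophage elastase, had 8 of its 11 reads in ABTr1. MMP23A and MMP23B share 903 exonic bases, so their few reads cannot be assigned to 1 copy with confidence. ADAMTS8, a proteoglycanase, had 3 reads in PEO1 and 14 in ABTr2, 4.08 times as much after scaling (95% counting interval 1.14 to 22.1). No model was fitted to these 12 genes, and these limits cover counting error only.

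Clone by clone, MMP2, ADAMTS18 and ADAMTS5 were called higher in each of the 4 clones. By edgeR's quasi-likelihood test 6 of the 35 genes were called in ABTr1, 3 in ABTr2, 4 in ABTr3 and 5 in ABTr4, every one of them higher. Of all tested genes 9.77% were called in ABTr1 (5.48% higher), 6.11% in ABTr2 (3.31% higher), 7.37% in ABTr3 (3.48% higher) and 9.71% in ABTr4 (4.46% higher). With the replicate block the counts were 15 (30.1% of all tested genes), 16 (22.1%), 13 (22.6%) and 12 (27%), of which 2, 3, 3 and 3 were lower (14.5%, 10.8%, 11.6% and 13.9% of all tested genes were lower). The log2FC of MMP2 was 9.92 (SE 1.28) in ABTr1, 10.84 (SE 1.29) in ABTr2, 8.02 (SE 1.28) in ABTr3 and 9.94 (SE 1.28) in ABTr4. That of ADAMTS18 was 4.23 (SE 0.79) in ABTr1, 5.54 (SE 0.81) in ABTr2, 6.68 (SE 0.84) in ABTr3 and 4.95 (SE 0.80) in ABTr4. The further calls in ABTr1 were ADAMTS7 (2.92, SE 0.60, edgeR adjusted p = 0.022), TIMP4 (1.76, SE 0.45, edgeR adjusted p = 0.0446) and ADAMTS12 (2.29, SE 0.60, edgeR adjusted p = 0.0484). MMP1 was called in ABTr3 (8.05, SE 1.93, edgeR adjusted p = 0.042) and ABTr4 (7.17, SE 1.89, edgeR adjusted p = 0.0479), and ADAMTS12 in ABTr4 (2.67, SE 0.61, edgeR adjusted p = 0.030). In ABTr2, MMP1 had a log2FC of 7.43 (SE 1.90) and an edgeR adjusted p of 0.0544, so its absence from that clone's calls does not show a difference between clones.

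These single-clone calls rest on few libraries. Of the 18, 4 passed whichever library was left out: MMP2 in ABTr1, ABTr2 and ABTr4, and ADAMTS18 in ABTr3. Leaving out PEO1 replicate 2 ended 14 of the 18, ABTr1 replicate 1 ended 8, and PEO1 replicate 1, ABTr1 replicate 2 and ABTr3 replicate 2 ended 7 each. ABTr3 replicate 1 ended 6, each library of ABTr4 ended 5, ABTr2 replicate 1 ended 3 and ABTr2 replicate 2 ended 2. With the replicate block MMP7 was lower in all 4 clones, at -2.73 (SE 0.61) in ABTr1, -2.44 (SE 0.60) in ABTr2, -5.13 (SE 0.70) in ABTr3 and -3.42 (SE 0.63) in ABTr4 (edgeR adjusted p 0.0088, 0.017, 0.00089 and 0.0035). MMP24 was as well, at -1.53 (SE 0.47), -2.22 (SE 0.48), -2.07 (SE 0.48) and -2.71 (SE 0.49) in the same order (edgeR adjusted p 0.033, 0.0095, 0.012 and 0.0031).

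**Figure D5:**
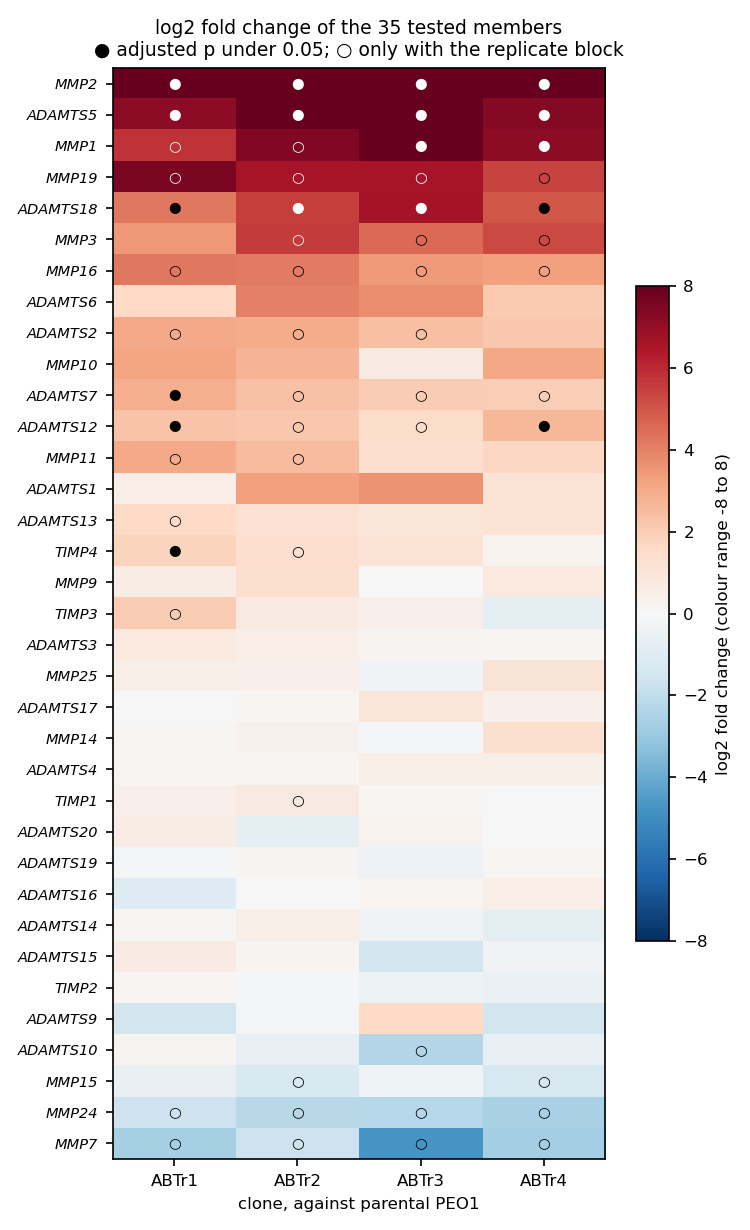
Log2 fold change of the 35 tested genes (rows, ordered by the mean) in each clone against parental PEO1 (columns), red higher and blue lower, with colours ending at -8 and 8; filled dots passed at an edgeR adjusted p under 0.05 and open dots passed with the replicate block and not without it. MMP2, ADAMTS5 and ADAMTS18 carry filled dots in all 4 clones, and MMP7 and MMP24 carry open dots in all 4.

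Differences among the clones themselves were fewer. Without the block 0 of the 35 genes were called in edgeR's joint test of all differences among the 4 clones (0.00606% of all tested genes). In that test 4 of the 35, and 874 of all 16490 tested genes, had an unadjusted p under 0.05. DESeq2 called 3, and its share over all tested genes was not taken. With the replicate block MMP2 (edgeR adjusted p = 0.015) and ADAMTS18 (edgeR adjusted p = 0.041) were called, against 0.843% of all tested genes. ABTr3 set itself against the mean of the other 3 clones in opposite directions for the 2 genes, with MMP2 lower by a log2 difference of -2.20 (SE 0.24; by edgeR, adjusted p = 0.0084 with the block and 0.97 without it) and ADAMTS18 higher by 1.91 (SE 0.28, edgeR adjusted p = 0.030 with the block and 0.93 without it). Of all tested genes 0.206% were called in this comparison with the block and 0% without it. ABTr1 had less ADAMTS18 than the other 3 (-1.49, SE 0.34, edgeR adjusted p = 0.0482 with the block) and more TIMP3 (1.95, SE 0.38, edgeR adjusted p = 0.036 with the block), where 2.97% of all tested genes were called. Without the block these 2 genes of ABTr1 had edgeR adjusted p of 0.52 and 0.37, and 0.0121% of all tested genes were called. No gene of the 35 passed for ABTr2 or ABTr4 against the others in either fit by edgeR, and DESeq2 called 0 and 1. Without the block 2 of the 35 had an unadjusted p under 0.05 in each clone. Of all 16490 tested genes 495 did so for ABTr2 and 862 for ABTr4. With the block 0% of all tested genes were called for ABTr2 and 0.546% for ABTr4, and without it 0% for both.

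Genes that work with these proteases were taken as a list of 53, of which 49 were tested. By edgeR 7 were higher and 5 lower in the mean of the clones, where 7.17% of all tested genes were higher and 8.79% lower. With the replicate block 13 were higher and 10 lower, against 16.3% and 18.2% of all tested genes. RECK, a membrane-anchored inhibitor of several MMPs, was at 5.01 and 8.43 CPM in PEO1 and at 13.1 to 40.6 CPM in the clones, a log2FC of 1.82 (SE 0.47, edgeR adjusted p = 0.032). The groups did not overlap for RECK, and its call was lost without PEO1 replicate 1 (1.45, adjusted p = 0.18), PEO1 replicate 2 (2.24, 0.10), ABTr1 replicate 1 (0.0548), ABTr1 replicate 2 (0.061) or ABTr3 replicate 2 (0.057). TFPI2, a secreted Kunitz inhibitor of plasmin and other matrix-degrading serine proteases, was at 96.8 and 794 CPM in PEO1 and at 16.4 to 111 CPM in the clones. TFPI2 fell by 3.72 on the log2 scale (SE 0.50, edgeR adjusted p = 0.0022), and 1 clone library, ABTr2 replicate 2, lay above the lower parental one. Without PEO1 replicate 2 the TFPI2 value was -1.52 (edgeR adjusted p = 0.031), and without PEO1 replicate 1 it was -4.60 (0.00011). BSG, known as an inducer of MMPs (EMMPRIN), had a log2FC of 0.55 (SE 0.21, edgeR adjusted p = 0.11). It was called with the block (edgeR adjusted p = 0.026), by DESeq2 (0.032) and with library totals (0.035).

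The plasminogen system feeds MMP activation through plasmin. Of its 7 genes 6 were tested, with PLAT (tissue plasminogen activator; log2FC 2.36, SE 0.63, edgeR adjusted p = 0.038) and SERPINE2 (1.36, SE 0.30, edgeR adjusted p = 0.019), an inhibitor of plasminogen activators, higher and PLG lower. PLG, plasminogen itself, was at 0.793 and 13.3 CPM in PEO1 and at 0 to 0.211 CPM in the clones, so its log2FC of -6.38 (SE 0.97) rests on 1 high library (edgeR adjusted p = 0.0037, and 0.14 at -3.25 without PEO1 replicate 2). SERPINE2 was no longer called without PEO1 replicate 1 (0.95, adjusted p = 0.11). PLAU (urokinase; log2FC 0.91, SE 0.44, edgeR adjusted p = 0.20) and its receptor PLAUR (0.10, SE 0.31, edgeR adjusted p = 0.86) were not called. PLAU, at 201 and 57.2 CPM in PEO1, was called without PEO1 replicate 1 (log2FC 2.04, edgeR adjusted p = 0.016) and was at 0.27 (0.69) without PEO1 replicate 2. The PLAT call was lost without PEO1 replicate 1 (2.98, edgeR adjusted p = 0.072), PEO1 replicate 2 (1.91, 0.23), ABTr1 replicate 2 (0.064), ABTr3 replicate 2 (0.0552) or ABTr4 replicate 2 (0.056).

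Among the 6 ADAMTS-like genes, which lack a protease domain, 2 were higher, where 7.17% of all tested genes were. ADAMTSL3 was at 2.85 and 1.59 CPM in PEO1 and 4.80 to 16.9 CPM in the clones (log2FC 1.99, SE 0.32, edgeR adjusted p = 0.0048). ADAMTSL1 was at 0.0992 and 0 CPM against 0.679 to 4.13 CPM (5.01, SE 1.00, edgeR adjusted p = 0.012, and 0.073 at 4.25 without PEO1 replicate 2). Neither gene's groups overlapped. PCSK5, a proprotein convertase, was at 33.5 and 34.4 CPM in PEO1 and 8.04 to 24.0 CPM in the clones (-1.34, SE 0.30, edgeR adjusted p = 0.019, and 0.071 or 0.11 without PEO1 replicate 1 or replicate 2). None of the 7 transmembrane ADAMs was called by edgeR without the block. An unadjusted p under 0.05 was found for 3 of them and for 5132 of all 16490 tested genes. With the block 4 of them were called, 1 higher and 3 lower, where 34.6% of all tested genes were called (16.3% higher and 18.2% lower). Of 9 AP-1 and ETS factors, transcription factors whose motifs are known from MMP promoters, 0 were higher and 2 were lower (8.79% of all tested genes were lower). The 2 were JUNB (-1.72, SE 0.39, edgeR adjusted p = 0.019) and JUND (-1.26, SE 0.34, edgeR adjusted p = 0.038). The fit with the block called 3 higher and 4 lower, against the same 16.3% and 18.2% of all tested genes. Without PEO1 replicate 2 neither JUNB (-1.04, edgeR adjusted p = 0.25) nor JUND (-0.74, 0.35) was called. The JUND call was also lost with library totals (0.083) and without ABTr1 replicate 1 (0.074), ABTr2 replicate 1 (0.0515), ABTr3 replicate 1 (0.071) or ABTr3 replicate 2 (0.078).

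Markers of the cell types these libraries could hold were summed beside the protease results. The 7 epithelial markers (EPCAM, CDH1, KRT7, KRT8, KRT18, KRT19 and CLDN4) summed to 9390 and 14500 CPM in PEO1 and to 2700 to 3530 CPM in the clones, so the labelled epithelial type was marked in all libraries and less so in the clones. CDH1, the epithelial cadherin, was at 147 and 358 CPM in parental cells and at 0.043 to 9.56 CPM in clones. The 3 ovarian serous markers (PAX8, WT1 and MSLN) summed to 241 and 291 CPM in parental and 137 to 336 CPM in clone libraries. Parental and clone libraries overlapped for each of them, among them WT1 (13.9 and 2.63 CPM in PEO1, 0.145 to 3.21 CPM in clones). The 9 fibroblast markers summed to 99.1 and 179 CPM in parental and 141 to 205 CPM in clone libraries, most of it THY1 (80.4 and 168 CPM in PEO1, 128 to 171 CPM in clones). COL3A1, DCN and LUM were at 0 in all 10 libraries, and COL1A2 had reads in 1 library. ACTA2, smooth muscle actin, was higher in every clone library (4.44 to 15.8 CPM) than in PEO1 (1.34 and 2.59 CPM). PDGFRB was at 0.124 and 0.155 CPM in PEO1 and 0.134 to 1.48 CPM in clones, with overlap. FAP (1.79 and 7.43 CPM in PEO1, 0.473 to 9.71 CPM in clones) and COL1A1 (8.16 and 8.47 CPM in PEO1, 1.8 to 15.7 CPM in clones) overlapped as well. The 7 leukocyte markers summed to 41.7 and 53.8 CPM in parental and 74.7 to 147 CPM in clone libraries, mostly CD68, while PTPRC, which defines leukocytes, was at 0 to 0.236 CPM. CD68, ITGAM (0.669 and 0 CPM in PEO1, 0.797 to 1.58 CPM in clones) and CSF1R (0.223 and 0.116 CPM, 0.23 to 0.554 CPM) lay above both parental libraries in every clone library. CD14 (8.46 and 18.3 CPM in PEO1, 1.91 to 17.4 CPM in clones) and LYZ (1.19 and 1.16 CPM, 0.797 to 2.22 CPM) overlapped. The 5 endothelial markers summed to 15.5 and 62.4 CPM in parental and 2.01 to 16.3 CPM in clone libraries. CDH5 made up most of the parental sum (14.6 and 61.6 CPM, against 0.172 to 14.1 CPM in clones). VWF (0.0496 and 0.464 CPM in PEO1, 0.516 to 2.06 CPM in clones) and KDR (0.372 and 0.0387 CPM in PEO1, 0.386 to 2.28 CPM in clones) lay above both parental libraries in every clone library. The part of these marker differences in the protease results was not tested.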

How the data were processed

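Polyadenylated RNA of 10 libraries was analysed from the deposited table of raw read counts per gene. The submitters' processing notes name the build hg19 and the tools TopHat2 2.0.14, featureCounts 1.4.6 and Subread. The kit, per the labels' protocols, keeps no strand, and how multi-mapping reads were counted is not given in the sources used here. The series' design names 15 libraries, of which 10 were analysed here. Descriptions and titles number the clones differently, and the titles were followed. The table names each gene once except for 4 rows with repeated symbols.

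Tests used edgeR 4.0.16 (R 4.3.3, limma 3.58.1) with its expression filter (minimum count 10), TMM factors, a quasi-likelihood fit of 5 groups (5 residual degrees of freedom) and adjusted p by Benjamini-Hochberg over 16490 genes. A gene was called at an adjusted p under 0.05. CPM uses TMM-scaled library sizes, and exonic lengths are those of the table. The mean of the 4 clones and every single clone were compared with PEO1, every clone with the other 3, and the clones jointly with each other. Intervals and floors (3 counts over a group, 95%) cover counting error only. Deviations from group means correlated between libraries with the same replicate number (r across genes 0.348 to 0.808 over the 10 pairs of groups), so a second fit that blocks on this number (with 4 degrees of freedom left) is given where it changes a call. Other settings were DESeq2 1.42.0, library totals, no filter, only the 2 compared groups and leaving out each library. The fit was tested on simulated data. There the comparison of the mean recovered 6% of the genes set to differ 2-fold, 84% at 4-fold and 94% at 8-fold. For ABTr1 against PEO1 the values were 0%, 36% and 88%. Full values were given for genes called in either fit, for the TIMPs and for the genes with the widest replicate gap, and partner genes were named by fixed symbols (RECK, BSG, PLAU and PLAUR, with 1 further symbol not reported here), by the 6 smallest adjusted p and, chosen after their values were seen, PLAT, JUNB, JUND, CDH1 and ADAMTS15. The genes and lists were chosen with earlier results of these data known. Of 53 partner symbols, 1 was matched by an older symbol (RefSeq, GRCh38.p14). Promoter sequences are RefSeq's. Figures were drawn with matplotlib 3.10.9 in Python 3.11.15.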

Additional observations from a re-analysis of the deposited data

Results flagged for a closer look

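MMP2 and ADAMTS18 differed among the 4 clones in the fit with the replicate block (edgeR adjusted p = 0.015 for MMP2 and 0.041 for ADAMTS18), and neither was called without the block (0.89 for MMP2 and 0.84 for ADAMTS18). ABTr3 had the lowest mean of MMP2 (4.75 CPM, against 17.7 in ABTr1, 33.6 in ABTr2 and 18.0 in ABTr4) and the highest mean of ADAMTS18 (15.2 CPM, against 2.78, 6.88 and 4.59 in the same order).

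MMP25, a membrane-anchored MMP of leukocytes, lay above both parental libraries (1.39 and 1.20 CPM) in both libraries of ABTr1 (1.58 and 2.06 CPM) and ABTr4 (1.42 and 3.85 CPM) and below both in ABTr3 (1.05 and 1.03 CPM). The test of the differences among the clones gave an edgeR adjusted p of 0.99 for MMP25, so the opposite sides were not shown to differ. ADAMTS9, a proteoglycanase, lay above both parental libraries (5.41 and 12.3 CPM) in ABTr3 (27.0 and 26.8 CPM) and below both in ABTr1 (3.45 and 3.08 CPM) and ABTr4 (4.65 and 1.76 CPM). Its edgeR adjusted p among the clones was 0.73.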

How the results depend on the processing

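In the mean of the clones, 8 genes were higher and 1 lower. With the replicate block 13 were higher and 3 lower, with DESeq2 13 higher and 1 lower, with library totals 11 and 1, and with no filter 10 and 2. Leaving out 1 library gave 3 to 9 higher (lowest without PEO1 replicate 2) and 0 to 2 lower. Single-clone counts with the replicate block were 15 (ABTr1), 16 (ABTr2), 13 (ABTr3) and 12 (ABTr4), and with DESeq2 12, 14, 12 and 10. Library totals gave 10 in ABTr1, no filter gave 11 in ABTr1, 8 in ABTr2 and 9 in ABTr4, and only the 2 compared groups gave 1 in ABTr2 and 3 in ABTr4. Leaving out 1 library gave 1 to 7 in ABTr1 and 1 to 5 in each of ABTr2, ABTr3 and ABTr4. Among the clones 2 were called with the block and 3 with DESeq2, and against the other 3 clones 2 with the block and 1 with DESeq2 in ABTr1 and in ABTr3, and 1 with DESeq2 in ABTr4. All of these stayed at 0 in the leave-one-out fits. Partner genes higher were 13 with the block and 11 with DESeq2 (2 to 8 with 1 library left out), and lower were 10 with the block (1 to 6 with 1 library left out). Except for the block, the share of all tested genes called was not taken in these settings, so their counts have no background beside them. Where an arm is left with 1 library, it is assumed to vary like the other groups. The cause of these shifts was not tested, except that leaving out libraries and fitting only 2 groups use fewer samples.

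The sign of a log2 fold change turned for MMP14 (-0.16), TIMP2 (0.55) and ADAMTS9 (0.36) without PEO1 replicate 2, for TIMP3 (-0.03) without PEO1 replicate 1, for TIMP2 (0.05) with library totals, and for PLAUR without ABTr2 replicate 1 (-0.03) or ABTr4 replicate 1 (-0.05). At the other end of the leave-one-out range stood 1.45 for MMP14, -0.74 for TIMP2 and -0.86 for ADAMTS9 without PEO1 replicate 1, 1.5 for TIMP3 without PEO1 replicate 2 and 0.21 for PLAUR without ABTr4 replicate 2. None of these 5 genes was called in the mean comparison. Library totals moved the median of all genes by 0.234 on the log2 scale and DESeq2 by -0.015. The replicate block ended no call of a named gene. At this depth, genes with a few reads, among them MMP10 and MMP14, allow no statement on small differences. With more reads, too, a gene that was not called is not shown to be unchanged, because the fit seldom recovered 2-fold differences in simulated data.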
